A study of Arabidopsis thaliana with 12 samples.

Results

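The genes described here are 9 small heat shock protein genes of Arabidopsis thaliana whose products fall outside the cytosolic classes I and II, and they need not be all such genes. They were chosen by locus, from the compartment or class of the protein: HSP21 of the chloroplast, HSP22.0 of the endoplasmic reticulum, HSP23.5, HSP23.6 and HSP26.5 of mitochondria, HSP15.7 of the peroxisome, the class III gene HSP17.4 (written HSP17.4-III below), HSP15.4 and HSP18.5. All 9 were found among the 32833 genes of the deposited expression table, and all 9 were among the 17628 genes with values high enough to test. Poly(A) RNA of whole Col-0 seedlings aged 10 days was sequenced in 12 libraries, in 4 groups of 3: the mutant atdamt1 after 2.5 h of heat, wild type after 2.5 h of heat, atdamt1 in control and wild type in control. The controls are labelled 0 h, so heat and the passing of 2.5 h cannot be told apart. The sources used here give neither the heat temperature nor the kind of lesion in atdamt1. Whether the 3 libraries of a group were grown as separate cultures is not labelled, so each p-value sets a difference against library spread only, which could be technical in part.

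Small heat shock proteins are chaperones built around a conserved alpha-crystallin domain. They bind unfolding proteins without using ATP and keep them soluble until HSP70 and ClpB chaperones refold them. Land plants place members of the family in the cytosol and also in chloroplasts, mitochondria, the endoplasmic reticulum and peroxisomes, so that a pool of client-binding chaperone can form in each compartment during heat. Their genes are classical targets of heat shock transcription factors, which bind heat shock elements, alternating repeats of GAA and its reverse complement TTC.

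Depth was 21720000 to 23519000 reads per library. AT1G19340, the Arabidopsis METTL4 homolog, served as the check of the genotype labels. The labels do not name the locus mutated in atdamt1, and AT1G19340 was inferred from the title of the series. It had 0.475, 0.146 and 0.404 RPKM (reads per kilobase of gene length after scaling to library depth) in atdamt1 heat, against 1.30, 1.33 and 1.54 RPKM in wild-type heat. In control it had 0.808, 0.913 and 1.29 RPKM in atdamt1, against 2.50, 3.02 and 3.10 RPKM in wild type. Within each treatment all atdamt1 libraries were therefore below all wild-type libraries, although limma did not call it at these low levels (log2 difference -0.84 ± 0.14 (SE), adjusted p = 0.208 in heat, and -0.96 ± 0.14, adjusted p = 0.114 in control). Of all genes tested, 13.5% had no overlap between the genotypes in heat and 9.83% in control. All 4 shoot markers were above 0 in all libraries. The summed level of 7 seed markers stayed at or below 3.80 RPKM, and that of 3 flower organ markers at or below 11.52 RPKM. Of the 6 root markers, 4 were above 0 in all 3 libraries of each group. The summed level of the root markers was 324 to 377 RPKM in atdamt1 heat and 184 to 430 RPKM in wild-type heat. It was 1332 to 2035 RPKM in atdamt1 control and 1573 to 2054 RPKM in wild-type control. Most of this sum was PYK10, with means of 346 and 314 RPKM in atdamt1 and wild-type heat, against 1561 and 1818 RPKM in control. PYK10 and SCR were called lower with heat in both genotypes (limma), and SHR and WOX5 in neither. Of the shoot markers, LHCB1.1 and LHCB2.1 were called higher and RBCS1A lower in both genotypes, and GL1 was not called. The part of these marker shifts in the results below was not tested. In these whole seedlings, fewer cells of a type and less RNA per cell cannot be told apart.

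Promoters of 4 genes are printed because they span the behaviours described below: the chloroplast gene HSP21, the mitochondrial pair HSP23.5 and HSP23.6, which differ before heat, and HSP15.4, which did not pass the test for heat. Each is the 250 bases upstream of the annotated gene start in the TAIR10.1 genome, 5′ to 3′ on the gene's strand, at chr4:13819972-13820221 (minus), chr5:20890913-20891162 (plus), chr4:12916676-12916925 (plus) and chr4:11604638-11604887 (minus), in the order printed. Capitals mark a match to GAANNTTC or TTCNNGAA, each a neighbouring GAA and TTC unit of the repeat that makes up a heat shock element.
HSP21: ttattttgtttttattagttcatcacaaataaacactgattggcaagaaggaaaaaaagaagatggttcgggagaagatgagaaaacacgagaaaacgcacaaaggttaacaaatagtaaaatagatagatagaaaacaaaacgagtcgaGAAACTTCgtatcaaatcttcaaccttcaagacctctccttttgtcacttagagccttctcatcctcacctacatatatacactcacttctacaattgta
HSP23.5: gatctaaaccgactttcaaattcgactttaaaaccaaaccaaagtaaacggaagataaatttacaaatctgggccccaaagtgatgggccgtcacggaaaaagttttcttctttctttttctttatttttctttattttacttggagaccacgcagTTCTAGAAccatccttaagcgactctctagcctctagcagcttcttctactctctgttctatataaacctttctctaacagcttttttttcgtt
HSP23.6: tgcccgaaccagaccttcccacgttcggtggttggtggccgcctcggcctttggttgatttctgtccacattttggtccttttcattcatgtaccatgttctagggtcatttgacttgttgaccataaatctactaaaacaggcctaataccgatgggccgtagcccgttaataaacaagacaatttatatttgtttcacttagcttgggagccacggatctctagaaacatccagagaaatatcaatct
HSP15.4: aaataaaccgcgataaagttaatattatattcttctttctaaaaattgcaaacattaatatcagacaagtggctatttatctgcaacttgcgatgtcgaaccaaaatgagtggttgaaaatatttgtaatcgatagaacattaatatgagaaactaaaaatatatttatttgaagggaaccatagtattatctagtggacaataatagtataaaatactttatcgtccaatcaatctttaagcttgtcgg

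The 2 motifs were searched on both strands, on which each reads the same, and they overlap only where 3 units stand in a row. GAANNTTC was present upstream of HSP21, 100 to 93 bases before the gene start, and of HSP26.5, 48 to 41 bases before it. TTCNNGAA was present upstream of HSP23.5, 94 to 87 bases before the start, and of HSP15.7, 158 to 151 bases before it. Each motif was thus found in 2 of 9 members (22.2%), against 9.55% and 7.68% of the 27444 protein-coding genes of the table in windows of the same length. A run of 3 units, in which both motifs share their middle unit, was found in 0 of 9 members, in 2 of 8 cytosolic class I and II genes and in 0.386% of all protein-coding genes. HSP23.6, HSP22.0, HSP17.4-III and HSP18.5, which all passed the test for heat below, held neither of the shorter motifs in this window, and neither did HSP15.4. Of the 8 cytosolic genes, 2 held GAANNTTC and 3 held TTCNNGAA. HSP17.6A, HSP17.6B, HSP17.8, HSP18.1 and the class II gene HSP17.6 held neither, although they also passed the test for heat. These are matches of letters, not measured binding sites.

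Heat went with higher transcript levels of 8 of the 9 genes in both genotypes, and the 3 heat libraries did not overlap the 3 control libraries of the same genotype for any of those 8. Of all genes tested, 11.4% had heat libraries wholly above the control libraries in atdamt1 and 11% in wild type (70% in atdamt1 and 67% in wild type were without overlap in either direction). Among all genes tested, 10.3% were called higher with heat in atdamt1 and 9.41% in wild type, while 56.2% and 52.6% were called lower (66.5% and 62% in either direction). A gene was tested if it had at least 1 RPKM in at least 3 libraries. HSP21, HSP22.0, HSP23.6 and HSP26.5 were below 1 RPKM in every control library and passed this filter only through their heat libraries. For these genes, entry to the test was thus not independent of a rise with heat, and a fall could not have been called. The members' median log2 change was 6.26 in atdamt1 and 6.69 in wild type, beside medians of -0.44 and -0.41 over all genes tested. The ninth gene, HSP15.4, had similar levels in all 4 groups. Changes below are differences of log2(RPKM + 1) from limma, with the standard error and the Benjamini-Hochberg p adjusted over all genes tested, and they understate the change of genes near 0.

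**Figure D1:**
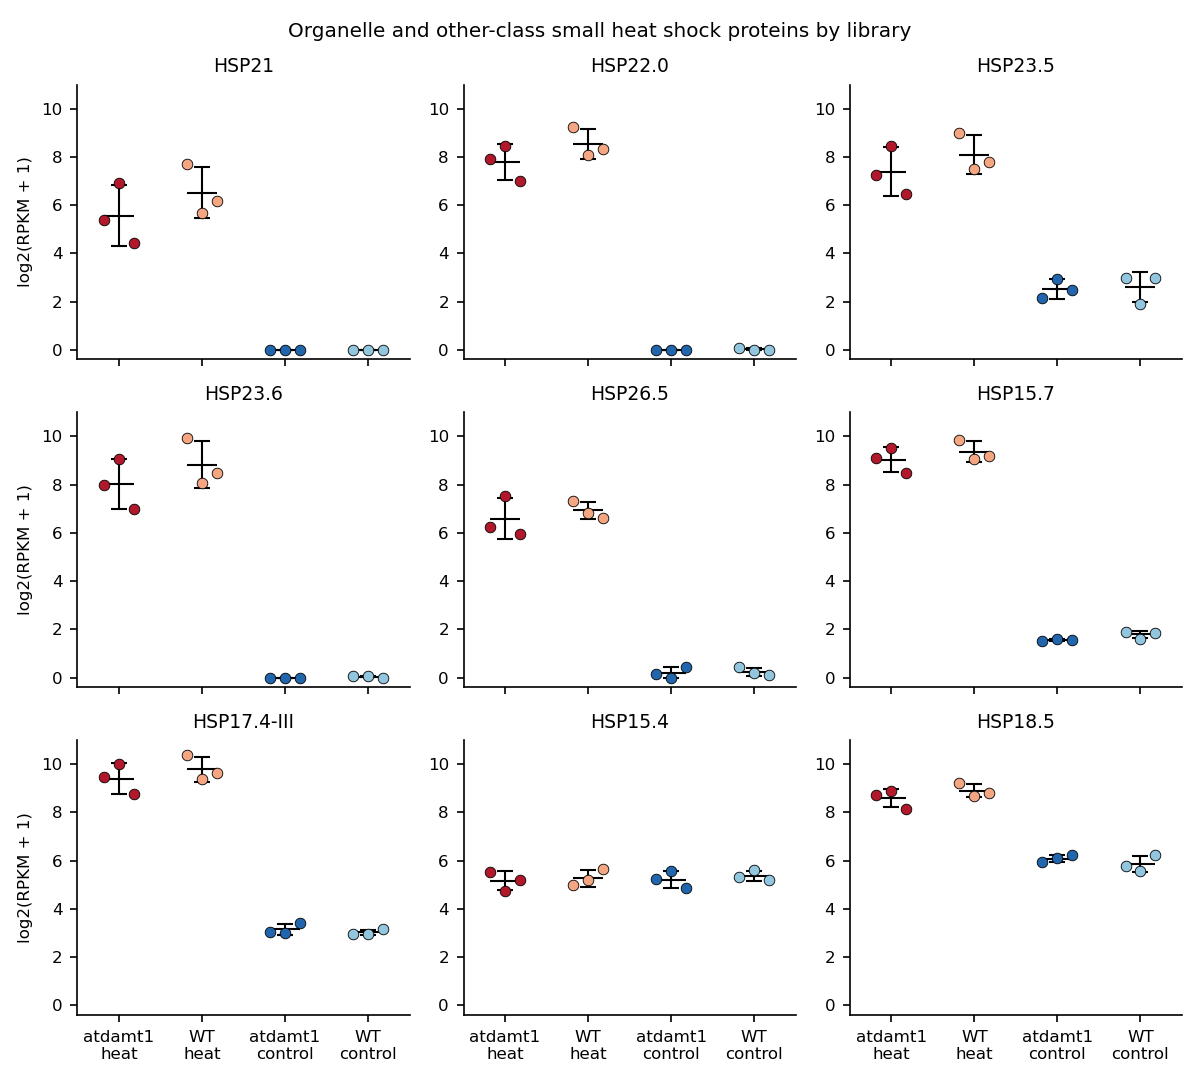
Level of the 9 genes in each of the 12 libraries, as log2(RPKM + 1), with 1 panel per gene; points are libraries, long lines are group means and bars are SD (n = 3). In 8 panels every heat library lies above every control library of its genotype, and in the HSP15.4 panel the 4 groups lie together between 25.9 and 49.5 RPKM.

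HSP21 (AT4G27670, chromosome 4, 13818825 to 13819971, minus strand, TAIR10.1) encodes the nuclear-encoded small heat shock protein of the chloroplast, which is known to protect the photosynthetic apparatus and the plastid transcription machinery in heat. It had 40.5, 119 and 20.3 RPKM in atdamt1 heat and 209, 49.8 and 71.6 RPKM in wild-type heat, against 0 reads in all 6 control libraries. The heat levels varied widely within both genotypes, and those of the genotypes overlapped. Against a floor of 3 reads per control library, which covers counting error only, HSP21 was at least 443-fold higher with heat in atdamt1 and at least 791-fold higher in wild type. The log2 change was 5.57 ± 0.56 in atdamt1 (adjusted p = 6.71e-06, limma) and 6.52 ± 0.56 in wild type (adjusted p = 2.36e-06, limma). The group mean of HSP21 in heat was 59.9 ± 52.1 RPKM in atdamt1 and 110.1 ± 86.3 RPKM in wild type (SD, n = 3 each). It was 30.4 RPKM in atdamt1 without replicate 2 and 60.7 RPKM in wild type without replicate 1, so that single libraries set these means.

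HSP22.0 (AT4G10250, chromosome 4, 6370338 to 6371372, plus strand, 1 exon) encodes the small heat shock protein of the endoplasmic reticulum. It had 239.7, 351 and 127 RPKM in atdamt1 heat and 599, 268 and 317 RPKM in wild-type heat, against 0 in all 3 atdamt1 controls and 0.0445, 0 and 0 RPKM in the wild-type controls. The single control value above 0 rested on 1 read. With heat HSP22.0 was at least 1865-fold higher in atdamt1, at the same floor of 3 reads per control library. In wild type the ratio of means was 26604, with a 95% counting interval of 4775 to 1050813 from that 1 read. Limma gave a log2 change of 7.79 ± 0.33 in atdamt1 (adjusted p = 2.16e-08, limma) and 8.52 ± 0.33 in wild type (adjusted p = 1.17e-08, limma).

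The mitochondrial genes HSP23.5 and HSP23.6 encode close relatives of the mitochondrial matrix. Their coding sequences had 70.8% identical bases over the global alignment, with gaps counted in its length. By that measure, which lowers the value of pairs of unlike length, it was the highest of any pair among the 9 (the next was 50.9%, for HSP21 and HSP23.6). The sources used here do not give how reads shared by the pair were assigned. HSP23.5 (AT5G51440, chromosome 5, 20891163 to 20892416, plus strand) had 151, 352 and 86.6 RPKM in atdamt1 heat and 510.5, 181 and 219 RPKM in wild-type heat. Its controls were clearly above 0, with 3.43, 6.72 and 4.53 RPKM in atdamt1 and 6.90, 2.72 and 6.78 RPKM in wild type. HSP23.6 (AT4G25200, chromosome 4, 12916926 to 12918110, plus strand) had 255, 531 and 127 RPKM in atdamt1 heat and 974, 269 and 359 RPKM in wild-type heat. Its controls were at 0 in all 3 atdamt1 libraries and at 0.0439, 0.0432 and 0 RPKM in wild type, which is 2 reads in all. The pair therefore differed before heat, where HSP23.5 had 369 reads in the atdamt1 controls and 400 reads in the wild-type controls.

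In every heat library HSP23.6 was the higher of the pair. The ratio of the HSP23.6 level to the HSP23.5 level was 1.68, 1.51 and 1.46 in atdamt1 heat and 1.91, 1.48 and 1.64 in wild-type heat, and at most 0.0159 in the control libraries. Both genes are on the RPKM scale, per length, so their levels can be compared. With heat, HSP23.5 was 40.2-fold higher in atdamt1 and 55.5-fold higher in wild type, as ratios of means. HSP23.6 was at least 2401-fold higher in atdamt1, and its ratio in wild type was 18376, with a 95% counting interval of 5087 to 151737. The log2 changes of HSP23.5 were 4.87 ± 0.51 (adjusted p = 8.22e-06, limma) in atdamt1 and 5.48 ± 0.51 (adjusted p = 3.87e-06, limma) in wild type. Those of HSP23.6 were 8.02 ± 0.48 (adjusted p = 2.03e-07, limma) in atdamt1 and 8.79 ± 0.48 (adjusted p = 1.17e-07, limma) in wild type. Group means of both moved by over 1.5 times with 1 library. Without atdamt1 heat replicate 2 they were 118.9 RPKM for HSP23.5 (196.7 with it) and 190.7 RPKM for HSP23.6 (304 with it). Without wild-type heat replicate 1 they were 200.1 RPKM for HSP23.5 (304 with it) and 314 RPKM for HSP23.6 (534 with it).

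HSP26.5 (AT1G52560, chromosome 1, 19574538 to 19575866, minus strand) is the third gene of the mitochondrial set. It had 75.1, 186 and 61.7 RPKM in atdamt1 heat and 159.8, 114 and 97.2 RPKM in wild-type heat. Its controls were at 0.122, 0 and 0.352 RPKM in atdamt1 and 0.353, 0.130 and 0.0872 RPKM in wild type, from 11 and 13 reads. It was near 0 before heat, like HSP23.6, but reached lower levels with heat than the other mitochondrial pair in every heat library. The ratio of heat to control means was 680 in atdamt1 and 650.0 in wild type, both over controls of few reads. The log2 change was 6.39 ± 0.33 in atdamt1 (adjusted p = 7.95e-08, limma) and 6.69 ± 0.33 in wild type (adjusted p = 5.35e-08, limma). The atdamt1 heat mean was 107 RPKM, and 68.4 RPKM without replicate 2.

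HSP15.7 (AT5G37670, chromosome 5, 14968758 to 14969591, plus strand, 1 exon) encodes the peroxisomal member, which carries a peroxisomal targeting signal at its C terminus. It had 549.9, 734 and 359.9 RPKM in atdamt1 heat and 929, 531 and 585 RPKM in wild-type heat, against 1.89, 2.07 and 1.93 RPKM in atdamt1 controls and 2.76, 2.07 and 2.62 RPKM in wild-type controls. The control libraries lay close together, and all 6 heat libraries lay far above them. The ratio of means was 279 in atdamt1 and 274.5 in wild type. On the log2 scale the change was 7.47 ± 0.24 in atdamt1 (adjusted p = 3.68e-09, limma) and 7.58 ± 0.24 in wild type (adjusted p = 2.91e-09, limma), the smallest adjusted p of the 9 genes in either genotype.

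HSP17.4-III (AT1G54050, HSP17.4B in the table, chromosome 1, 20179357 to 20180566, minus strand) is the class III gene, whose protein was described as nuclear and cytosolic. It had 703, 1026 and 429.9 RPKM in atdamt1 heat and 1318, 659 and 785 RPKM in wild-type heat, against 7.22, 7.01 and 9.58 RPKM in atdamt1 controls and 6.78, 6.84 and 7.90 RPKM in wild-type controls. It had the highest mean of the 9 genes in heat in both genotypes. The ratio of means was 90.7 in atdamt1 and 128 in wild type. The log2 change was 6.26 ± 0.30 in atdamt1 (adjusted p = 4.42e-08, limma) and 6.76 ± 0.30 in wild type (adjusted p = 2.49e-08, limma).

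HSP18.5 (AT2G19310, chromosome 2, 8369568 to 8370675, minus strand, 1 exon) is named as class IV in the table and was the most abundant of the 9 before heat. It had 421, 467 and 285 RPKM in atdamt1 heat and 589, 414 and 442 RPKM in wild-type heat, against 59.98, 67.2 and 74.0 RPKM in atdamt1 controls and 53.7, 46.5 and 74.3 RPKM in wild-type controls. Heat and control libraries did not overlap, but the ratio of means was 5.83 in atdamt1 and 8.28 in wild type, the lowest of the 8 genes that rose. In limma the log2 change was 2.50 ± 0.21 in atdamt1 (adjusted p = 2.03e-06, limma) and 3.04 ± 0.21 in wild type (adjusted p = 5.55e-07, limma).

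HSP15.4 (AT4G21870, chromosome 4, 11603481 to 11604637, minus strand) is named as class V in the table. It had 45.2, 25.9 and 36.0 RPKM in atdamt1 heat and 30.4, 35.8 and 49.5 RPKM in wild-type heat, against 36.7, 46.2 and 28.0 RPKM in atdamt1 controls and 38.9, 47.5 and 36.0 RPKM in wild-type controls. The 4 groups overlapped. The log2 change was -0.06 ± 0.24 in atdamt1 (95% interval -0.57 to 0.46, adjusted p = 0.843, limma) and -0.10 ± 0.24 in wild type (-0.61 to 0.42, adjusted p = 0.736, limma). The sign of this change depended on the scaling: under median-of-ratios scaling it was 0.47 in atdamt1 (adjusted p = 0.115, limma) and 0.41 in wild type (adjusted p = 0.169, limma), and it did not pass the threshold under any alternative. The intervals do not reach the changes of the other 8 genes.

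**Figure D2:**
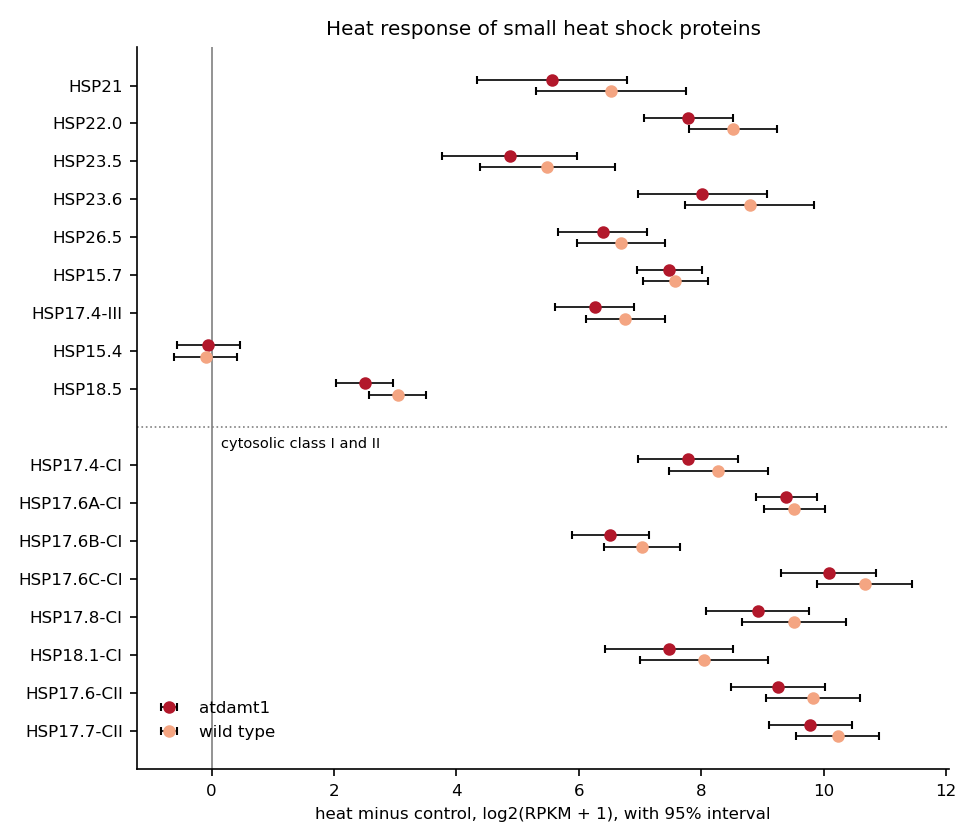
Heat minus control, as the difference of log2(RPKM + 1), for the 9 genes (above the dotted line) and the 8 cytosolic class I and II genes (below it), in atdamt1 and in wild type; points are limma estimates and bars are 95% intervals. Intervals of 8 of the 9 genes lie above 0 in both genotypes, from HSP18.5 at 2.50 in atdamt1 and 3.04 in wild type to HSP23.6 at 8.02 in atdamt1 and 8.79 in wild type, and those of HSP15.4 cross 0.

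The order of the levels changed between control and heat. In control HSP18.5 stood first, with a mean of 67.1 RPKM in atdamt1 and 58.2 RPKM in wild type, followed by HSP15.4 with 37.0 RPKM in atdamt1 and 40.8 RPKM in wild type. HSP17.4-III, HSP23.5 and HSP15.7 followed in that order, between 1.96 and 7.94 RPKM, and the other 4 genes were below 0.2 RPKM. The control libraries of HSP18.5 and HSP15.4 did not overlap in atdamt1, but did in wild type. In heat HSP17.4-III stood first and HSP15.7 second, while HSP26.5, HSP21 and HSP15.4 were the 3 lowest, in that order, in both genotypes. Neighbours in the heat order overlapped throughout, except that every library of HSP23.5 was above every library of HSP26.5, and every library of HSP21 above every library of HSP15.4, in wild type. The summed level of the 9 genes was 1533 to 3792 RPKM in atdamt1 heat and 2521 to 5319 RPKM in wild-type heat, against 109 to 129 RPKM in atdamt1 control and 106 to 128 RPKM in wild-type control. The 8 cytosolic genes of classes I and II summed to 4832 to 11672 RPKM in atdamt1 heat and 8096 to 16465 RPKM in wild-type heat, against 12.7 to 15.73 RPKM in atdamt1 control and 10.2 to 16.6 RPKM in wild-type control. The 9 genes therefore had the larger sum in every control library and the smaller sum in every heat library, and HSP18.5 and HSP15.4 made up most of their sum in control.

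The heat libraries of a genotype differed from each other, and 8 of the 9 genes differed in much the same way. HSP21, HSP22.0, HSP23.5 and HSP23.6 had one and the same order of the 6 heat libraries: wild-type replicate 1, atdamt1 replicate 2, wild-type replicate 3, wild-type replicate 2, atdamt1 replicate 1 and atdamt1 replicate 3, from high to low. That order was also found in 6 of 8 cytosolic class I and II genes. Of the 9 genes, 7 were highest in wild-type heat replicate 1 and 8 were lowest in atdamt1 heat replicate 3; of the 9657 genes with a mean of at least 5 RPKM in heat, 32% were highest and 30.3% lowest in those same libraries. The exceptions were HSP26.5, which was highest in atdamt1 heat replicate 2, and HSP15.4, which was lowest in that library and highest in wild-type heat replicate 3.

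The size of this spread differed between the genes. The highest heat library exceeded the lowest 10.3-fold for HSP21, 7.69-fold for HSP23.6, 5.89-fold for HSP23.5 and 4.71-fold for HSP22.0. It did so 3.07-fold for HSP17.4-III, 3.01-fold for HSP26.5, 2.58-fold for HSP15.7, 2.07-fold for HSP18.5 and 1.92-fold for HSP15.4. Among the 9657 genes the median of this ratio was 1.37 and the 95th percentile 2.47, and 7 of the 9 genes were above that percentile. The cytosolic class I and II genes shared the wide spread: all but HSP17.6A (2.32-fold) were above that percentile, up to 6.84-fold for HSP18.1. Among the 9 genes, HSP21, HSP23.6 and HSP23.5 thus had the widest spread and HSP18.5 and HSP15.4 the narrowest, within the same libraries. HSFA2, a heat-induced transcription factor that maintains small heat shock protein expression, ran in the order of the 4 genes above, with 554, 886 and 335 RPKM in atdamt1 heat and 1171, 642 and 707 RPKM in wild-type heat. That order was not particular to HSFA2. The chloroplast chaperone gene CLPB3 had it, and so did BIP1, an endoplasmic reticulum chaperone gene called lower with heat in both genotypes (limma). A part of HSFA2 in the spread was not tested. The share of the RPKM total from chloroplast-encoded genes also differed between heat libraries, at 6.01%, 3.17% and 5.58% in atdamt1 heat and 0.629%, 4.06% and 0.390% in wild-type heat, against 0.320% to 0.979% in atdamt1 control and 0.394% to 1.07% in wild-type control. Its part in the spread was not tested; with values scaled to nuclear-encoded genes, 8 of 9 genes were again called higher with heat in both genotypes.

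**Figure D3:**
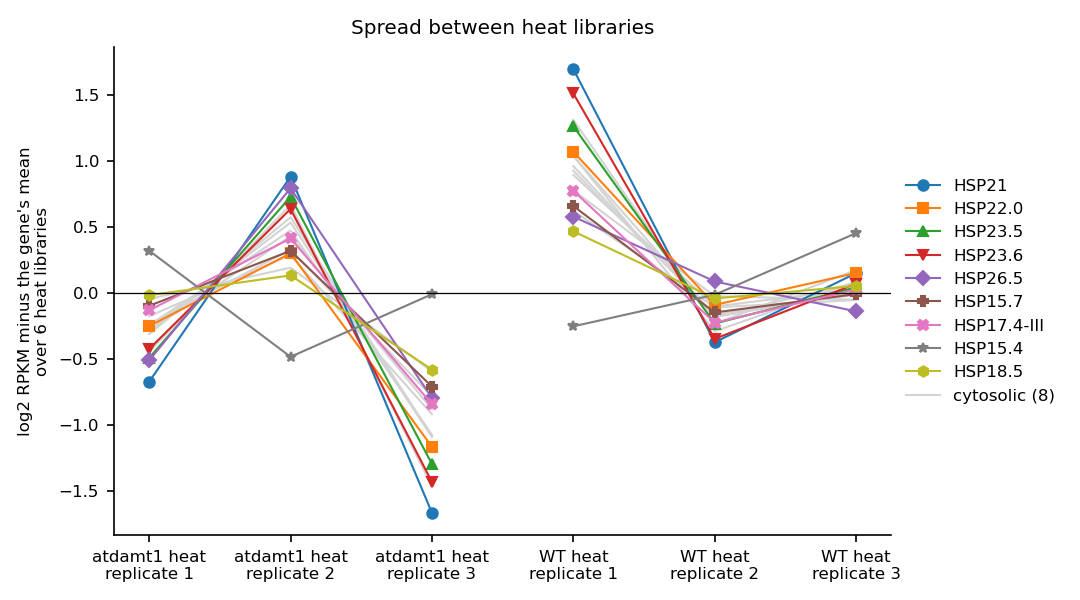
Level of each of the 6 heat libraries minus the gene's mean over those 6, in log2 RPKM; coloured lines are the 9 genes and pale grey lines the 8 cytosolic class I and II genes, and lines only join the points of a gene. The lines of 8 genes peak in wild-type heat replicate 1 or atdamt1 heat replicate 2 and are lowest in atdamt1 heat replicate 3 (-1.67 there and 1.69 in wild-type heat replicate 1 for HSP21), and HSP15.4 departs from them.

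The comparison of genotypes asks whether the mutant differs from wild type in these genes. In heat, the mean RPKM was lower in atdamt1 than in wild type for all 9 genes, but the libraries of the 2 genotypes overlapped for all 9 (13.5% of all genes tested had no overlap) and 0 of 9 passed the threshold, where 0% of all genes tested were called (smallest adjusted p of the 9 = 0.663, limma). The mean was lower in atdamt1 for all 8 cytosolic class I and II genes as well, and the median log2 difference over all genes tested was -0.08. The 9 genes were measured in the same 6 libraries and varied together in them, so their shared direction is not 9 separate observations. At an unadjusted p under 0.05 there was 1 gene, HSP22.0, with a log2 difference of -0.75 (95% interval -1.47 to -0.02, unadjusted p = 0.0442, adjusted p = 0.663, limma), beside 1326 of all genes tested. Voom on whole reads recovered from the RPKM values also called 0 of 9, with 1 at an unadjusted p under 0.05.

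The ratio of the atdamt1 heat mean to the wild-type heat mean was lowest for HSP21, at 0.544, and highest for HSP15.4, at 0.925. The log2 difference was -0.96 for HSP21 (95% interval -2.18 to 0.27), -0.82 for HSP23.6 (-1.87 to 0.24) and -0.71 for HSP23.5 (-1.81 to 0.40). For the genes with the narrower spread it was -0.33 for HSP15.7 (-0.86 to 0.20), -0.31 for HSP18.5 (-0.78 to 0.15) and -0.12 for HSP15.4 (-0.63 to 0.40). The intervals of all 6 include 0 and are widest for HSP21. Single libraries moved these values: the HSP21 difference was -0.36 without wild-type heat replicate 1, -0.38 without atdamt1 heat replicate 3 and -1.63 without atdamt1 heat replicate 2. That of HSP23.6 was -0.27 without wild-type heat replicate 1, that of HSP26.5 was -0.34 with all libraries and -0.03 without atdamt1 heat replicate 3, and that of HSP15.4 was 0.09 without atdamt1 heat replicate 2. An exact permutation test of 3 against 3 libraries cannot go below p = 0.1.

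In control, 0 of 9 genes passed the threshold between atdamt1 and wild type, beside 0.0113% of all genes tested (limma; 0 of 9 at an unadjusted p under 0.05, and 0 of 9 by voom). The log2 differences ran from -0.23 for HSP15.7 to 0.22 for HSP18.5, and the genotypes overlapped for all 9 genes (9.83% of all genes tested had no overlap). The heat response itself also did not differ past the threshold: the interaction of genotype and heat was called for 0 of 9 genes, where 0% of all genes tested were called (smallest adjusted p = 0.979, limma; 0 of 9 at an unadjusted p under 0.05, and 0 of 9 by voom). The interaction was below 0 for 8 of 9 genes, with a median of -0.54 and values of -0.96 ± 0.79 for HSP21 and -0.10 ± 0.34 for HSP15.7. It shares the heat libraries with the comparison of genotypes in heat.

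**Figure D4:**
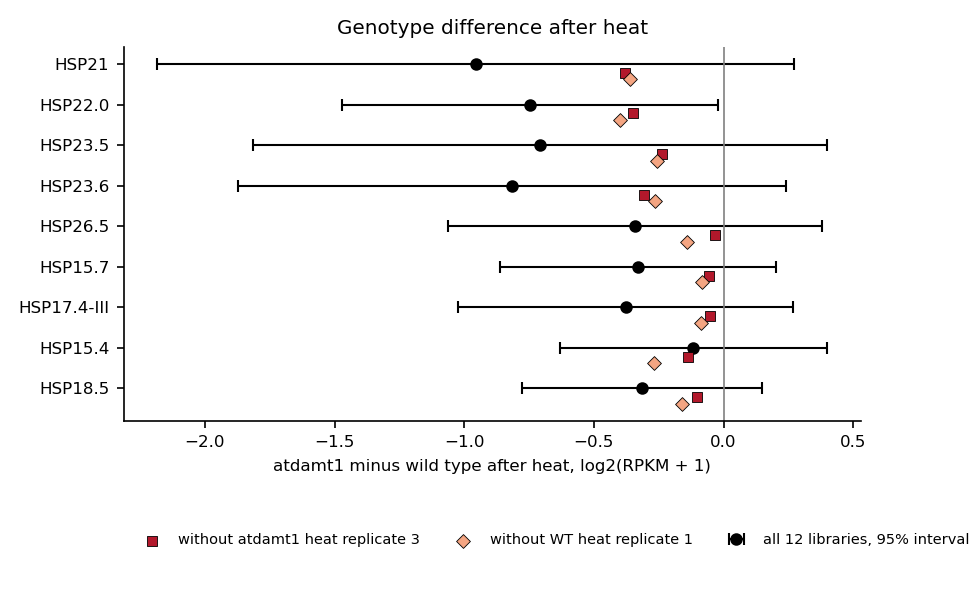
Difference of atdamt1 from wild type after heat for the 9 genes, in log2(RPKM + 1); black points are limma estimates from all 12 libraries with 95% intervals, squares leave out atdamt1 heat replicate 3 and diamonds leave out wild-type heat replicate 1. All 9 black points lie below 0, from -0.96 for HSP21 to -0.12 for HSP15.4, and 8 of the 9 genes lie nearer to 0 without either library. The interval of HSP22.0 alone lies below 0, and its adjusted p was 0.663.

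The other chaperone genes of each compartment were counted beside the compartment's small heat shock protein. Of all genes tested, 10.3% were called higher and 56.2% lower with heat in atdamt1, and 9.41% higher and 52.6% lower in wild type. The counts of each list below stand beside those shares, so falls in a list are not by themselves particular to it. Of 8 chloroplast chaperone and protease genes tested, 1 rose and 4 fell with heat in atdamt1, and 2 rose and 1 fell in wild type. CLPB3, the disaggregase of the chloroplast, rose by 2.99 in atdamt1 and 3.53 in wild type on the log2 scale, and cpHSC70-2, an HSP70 of the chloroplast, fell by 1.04 in atdamt1 and 0.64 in wild type. cpHSC70-1, the other HSP70 of the chloroplast, rose by 0.66 in wild type and had a change of 0.27 that was not called in atdamt1. PTAC5, a plastid protein known to work with HSP21, was called lower in atdamt1, with a log2 change of -0.39 (adjusted p = 0.00839, limma), and was not called in wild type (-0.05, adjusted p = 0.703, limma). The interaction of genotype and heat was not called for PTAC5 (-0.34, adjusted p = 0.979, limma).

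Of 8 mitochondrial chaperone genes, 2 rose and 1 fell with heat in atdamt1, and 2 rose and 0 fell in wild type (limma; 0 fell at an unadjusted p under 0.05 in wild type either). The mitochondrial HSP70 gene mtHSC70-2 rose by 3.58 in atdamt1 and 4.03 in wild type, and CLPB4, the mitochondrial disaggregase, rose by 2.37 in atdamt1 and 2.82 in wild type. HSP89.1, a mitochondrial HSP90, fell by 0.70 in atdamt1 and had a change of -0.48 that was not called in wild type. In the mitochondrion and in the chloroplast, the ClpB gene was thus called higher in both genotypes, next to HSP23.5, HSP23.6, HSP26.5 and HSP21.

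Of 10 endoplasmic reticulum chaperone genes tested, 1 rose and 9 fell in both genotypes. The gene that rose was ERDJ3A, a J-domain co-chaperone, with 3.74 in atdamt1 and 4.26 in wild type, beside HSP22.0. CRT1, a calreticulin, fell by 3.36 in atdamt1 and by 3.47 in wild type, the largest fall of the list, and BIP2, an HSP70 of the endoplasmic reticulum, fell by 1.78 in atdamt1 and by 1.34 in wild type. Of 6 genes of peroxisome import and quality control, 1 rose and 2 fell in atdamt1, and 2 rose and 3 fell in wild type; the peroxisomal protease gene LON2 rose by 0.57 in atdamt1 and 0.60 in wild type, the import gene PEX14 fell by 0.86 in atdamt1 and 0.76 in wild type, and PEX7, an import receptor, rose by 0.45 in wild type. No gene of that list approached the change of HSP15.7. Of 16 heat shock transcription factor genes tested, 7 rose and 5 fell in atdamt1, and 6 rose and 4 fell in wild type, led by HSFA2 (7.81 in atdamt1 and 8.63 in wild type), HSFA7B (5.49 in atdamt1 and 6.22 in wild type) and HSFA7A (4.54 in atdamt1 and 4.88 in wild type). HSFA1A, HSFA1D, HSFA5 and HSFB4 fell in both genotypes and HSFA4C in atdamt1, the deepest being HSFA1D, which fell by 1.12 in atdamt1 and by 1.11 in wild type.

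All 8 cytosolic class I and II genes rose in both genotypes, with a median log2 change of 9.09 in atdamt1 and 9.52 in wild type (HSP17.6C had 10.08 in atdamt1 and 10.67 in wild type, HSP17.7 had 9.78 in atdamt1 and 10.23 in wild type, HSP17.6A had 9.39 in atdamt1 and 9.52 in wild type, and the class II gene HSP17.6 had 9.26 in atdamt1 and 9.82 in wild type). The class I genes HSP17.4 and HSP17.6C, the class II genes HSP17.6 and HSP17.7, and HSFA7B were below 1 RPKM in every control library. They too passed the filter only through their heat libraries, so a fall could not have been called for them. The counts of falls in these lists depend on the scaling: under median-of-ratios scaling the median of all genes moved to 0.01 in both genotypes, and 50.2% of all calls in atdamt1 and 51.8% in wild type were then rises, against 15.5% and 15.2% on the RPKM scale. Under that scaling 0 of 8 chloroplast genes fell in either genotype. Counts that differ between the genotypes do not by themselves show a different heat response. The interaction was tested and called for 0% of all genes tested.

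**Figure D5:**
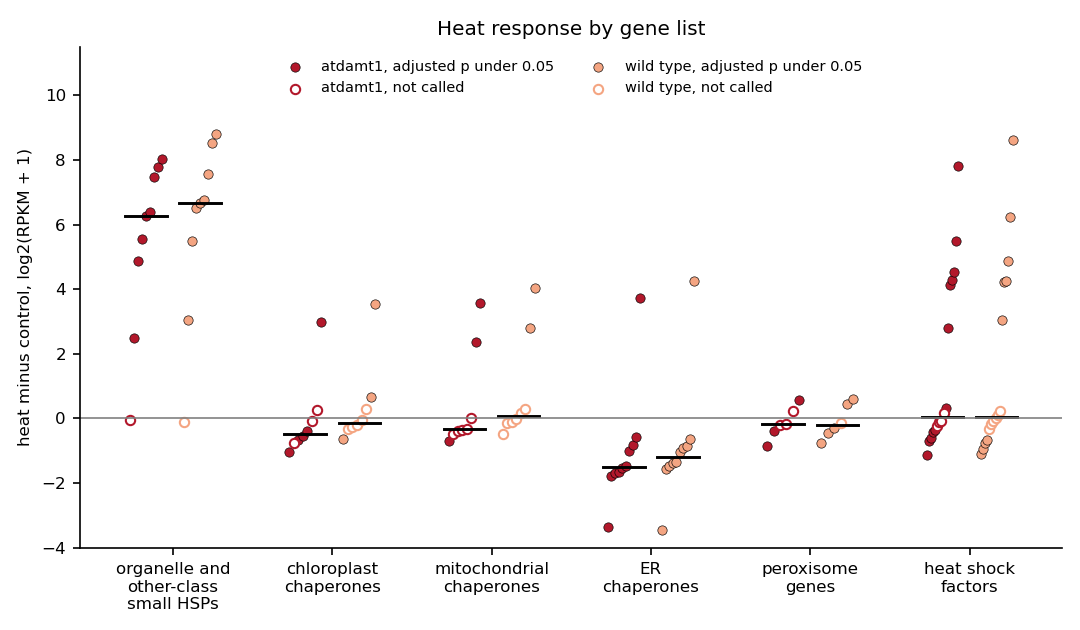
Heat minus control, as the difference of log2(RPKM + 1), of the 9 genes and of 5 other lists, with 1 point per gene tested in atdamt1 and in wild type; filled points passed an adjusted p of 0.05 and black lines are list medians. The 9 genes have medians of 6.26 in atdamt1 and 6.69 in wild type with HSP15.4 near 0, and the other lists have points on both sides of 0.

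For each of the 9 genes, the gene outside the small heat shock proteins with the most similar profile over the 12 libraries was found among 12421 genes, by the Euclidean distance between log2(RPKM + 1) values after each gene's own mean was taken off. HSP21 was nearest to HSFA7B, a heat shock factor, at a distance of 0.66. HSP22.0 was nearest to HSP70-5 (1.18) and HSP23.6 to HSFA2 (1.58), while HSP23.5 was nearest to AT1G61340, an F-box protein gene (1.26). HSP26.5 was nearest to AT2G20560 (0.75), HSP15.7 to HSP90-1 (0.78) and HSP17.4-III to HSP70-8 (0.52). The 2 remaining genes, HSP18.5 and HSP15.4, had the smallest heat changes. HSP18.5 was nearest to SZF1, a zinc finger gene (0.63), and HSP15.4 to AHL15, an AT-hook gene (0.64). The nearest small heat shock protein genes of HSP18.5 and HSP15.4 were at distances of 4.46 and 5.19, against 0.46 to 1.93 for the other 7. Profiles were not scaled, so these distances depend largely on the size of the heat change. Shared regulation was not tested.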

How the data were processed

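The authors deposited 1 table of RPKM values for 32833 genes in 12 libraries. The submitters' processing notes name STAR, DESeq2 and the build TAIR10 with no role or version. Per the labels' protocols the library kit is directional. The sources used here give no counting tool, strand setting or annotation release.

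RPKM multiplied by exon-union length (TAIR10.1, 32548 genes) gave whole reads, within 0.1 reads, in all 12 libraries for 24382 of 24599 genes (99.1%), all 9 members among them, and the depths printed. None of the 9 overlaps another annotated gene. Floors (3 reads per library) and counting intervals (95%) cover counting error only. Libraries of the same group differed beyond counting noise (chi-square over degrees of freedom 9.3 to 34.2), and each was counted as 1 sample.

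Genes with at least 1 RPKM in at least 3 libraries were fitted as log2(RPKM + 1) with limma 3.58.1 (R 4.3.3; mean-variance trend, 1 mean per group, 8 residual degrees of freedom, two-sided), with Benjamini-Hochberg adjustment over all 17628 genes and a threshold of 0.05. The fit was also run on simulated counts with a fixed spread, which was not set from the spread of these libraries. Other steps used Python 3.11.15. The alternatives were other pseudocounts, filters and scalings, array weights, fits of only the groups compared, voom on recovered reads, a replicate block and leaving out each library. Named genes of other lists were the up to 3 with the largest change past the threshold and those against their list's majority, with PTAC5 named after its values were seen. The members and lists were chosen with earlier results of these data known.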

Additional observations from a re-analysis of the deposited data

How the results depend on the processing

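The counts of members called (8 higher and 0 lower with heat in each genotype; 0 for genotype and interaction) were the same under every alternative run, including each of the 12 fits without 1 library. The replicate numbers correlated across groups at -0.425 to 0.527, and a library correlated best with its own number in 13 of 36 cases, so they do not pair samples; with the replicate block 8 members were again called higher in each genotype. HSP21 with heat ranged over the alternatives from 3.39 to 10.999 in atdamt1 and from 4.27 to 11.9 in wild type. Voom moved the control and interaction values of HSP22.0, HSP23.6 and HSP26.5, which rest on few control reads, without a call; the interaction could not be fitted on fewer than all 4 groups. Counts in other lists moved with scaling; the cause was not tested. Median-of-ratios scaling gave, for atdamt1, 2 higher and 0 lower chloroplast genes, 0 lower mitochondrial genes, 4 higher and 1 lower peroxisome genes and 1 lower heat shock factor gene, and for wild type 4 higher and 0 lower chloroplast genes and 1 lower peroxisome gene. Quantile normalization gave, for atdamt1, 0 lower mitochondrial genes, 3 higher and 1 lower peroxisome genes and 1 lower factor gene, and for wild type 2 lower chloroplast genes, 1 lower peroxisome gene, and 11 higher and 2 lower factor genes. Scaling to nuclear-encoded genes gave 0 lower mitochondrial genes and 2 higher peroxisome genes in atdamt1. Over all genes, median-of-ratios scaling called 4840 higher and 4793 lower in atdamt1 and 5062 higher and 4715 lower in wild type, and quantile normalization 4051 and 5175 in atdamt1 and 4001 and 4670 in wild type, against 1817 and 9913 in atdamt1 and 1659 and 9267 in wild type. With 3 libraries a group, intervals of the genotype difference stay wide, and at 0 to 2 control reads the heat folds of HSP21, HSP22.0 and HSP23.6 are bounds or wide intervals.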
